A study of Mus musculus with 16 samples.

Results

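The 9 genes described here encode the engulfment adaptor Elmo1, Dock and Rac proteins that act with it, and subunits of NADPH oxidases. They are Elmo1, Dock1, Dock2, Rac1, Rac2, Nox4, Cyba, Cybb and Ncf1, chosen by symbol from the 57186 rows of the gene count table, and each symbol was found once. The 7 transcripts of Elmo1 were read from the 149194 rows of the transcript table. RNA was measured by sequencing in kidneys of 16 male mice on a C57BL/6J background, collected at 16 weeks of age, with 4 libraries in each of 4 groups. Every mouse in every group was Elmo1H/H, an allele that the study describes as raising Elmo1 expression, so no library with unmodified Elmo1 was available for comparison here and the Elmo1 level cannot check the labels. Non-diabetic mice without B12 are called ND_C and non-diabetic mice given B12 are called ND_B12. Diabetic mice also carried Ins2Akita/+, an insulin variant that misfolds and leaves the pancreas short of insulin, and are called D_C without B12 and D_B12 with it. B12 was given in drinking water at 10 mg/kg per day from 8 weeks of age. The labels state 16 weeks of treatment and the methods of the study state 8, which fits the age at collection.

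Elmo proteins bind Dock proteins, and the pair acts as an exchange factor that loads Rac, a small GTPase, with GTP. Active Rac remodels actin during the uptake of dying cells and during cell migration. In phagocytes it also joins the NADPH oxidase, in which Cybb (the catalytic NOX2 chain) and Cyba (its p22phox partner in the membrane) make superoxide once cytosolic subunits such as Ncf1 (p47phox) assemble on them. Nox4 is the catalytic chain most known from kidney tubules, needs Cyba, and works without the cytosolic subunits. Dock2 and Rac2 are best known from blood cells, whereas Dock1 and Rac1 are expressed widely.

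The totals of the estimated counts ran from 65271308 to 91771136 per library and gave the 9 genes between 80 (Ncf1) and 37438 (Nox4) counts in a library. Each D_C total exceeded each ND_C total. The groups also differ in the date that opens the library name, and only 1 date holds both non-diabetic libraries (ND_B12 2, 3 and 4) and a diabetic library (D_C 1), so date and group can hardly be told apart. The labels were set against the table of group means that accompanies the study. For 178 genes of that table, the set of 4 libraries with the closest means was not the labelled set in any of the 4 groups. The closest sets differed from the table by a median absolute log2 value of 0.000158 to 0.000263, and the labelled sets by 0.0386 to 0.299. Under the closest sets 11 libraries change group, but only 2, ND_B12 4 and D_C 1, change from non-diabetic to diabetic or back. All groups below follow the labels. The averaged diabetes values of the 9 genes are therefore also given without these 2 libraries. The closest set to the D_C means was the 4 libraries labelled D_B12. The closest set to the D_B12 means held 3 labelled D_C, with ND_B12 4 in place of D_C 1. Under the closest sets a difference between D_B12 and D_C can therefore turn its direction, but not for every gene, since the exchange is not exact. Markers of proximal tubule were abundant in all groups, with summed levels of 18990 to 31590 CPM, counts scaled to the library total, and the markers include transporters found in kidney.

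Read per kilobase of exon, so that genes can be compared, the 9 genes covered a wide range in these kidneys. Cyba was highest, at 17634 ± 1553 normalized counts per kb (SD over 16 libraries). Nox4 followed at 3246 ± 400 and Rac1 at 2834 ± 138, and their ranges over the libraries overlapped (2627 to 4274 for Nox4, 2597 to 3053 for Rac1). Dock1 stood alone at 873 ± 68.1, above Cybb at 130 ± 35.0. Rac2 had 57.2 ± 17.4 and Ncf1 38.5 ± 7.32 normalized counts per kb, with overlapping ranges. Over the merged exons of all annotated transcripts, Dock2 at 29.2 ± 8.36 and Elmo1 at 27.4 ± 3.96 were lowest, and their ranges (19.4 to 51.8 and 22.1 to 38.4) also overlapped each other and that of Ncf1. The place of Elmo1 depends on the length used, since its merged exons include retained introns. The counts of its main transcript Elmo1-201 over the length of that transcript alone gave 50.8 ± 6.89 per kb, a value above the means of Dock2 and Ncf1. By either length Elmo1 was the least abundant of its own family, below Elmo3 at 590 ± 40.6 and Elmo2 at 325 ± 25.3 normalized counts per kb. The lowest library of either relative was above the highest library of Elmo1 by either length. Among Dock genes Dock5, a close relative of Dock1, reached 418 ± 36.0 per kb. Rhog, a small GTPase that recruits Elmo to the membrane, stood at 348 ± 28.6 and Rac3 at 153 ± 42.1 per kb. Of the other oxidase subunits, Cybc1 (a chaperone of the NOX2 chain) was at 188 ± 21.9, and the cytosolic subunit Ncf4 (p40phox) was at 21.4 ± 6.94 per kb.

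**Figure D1:**
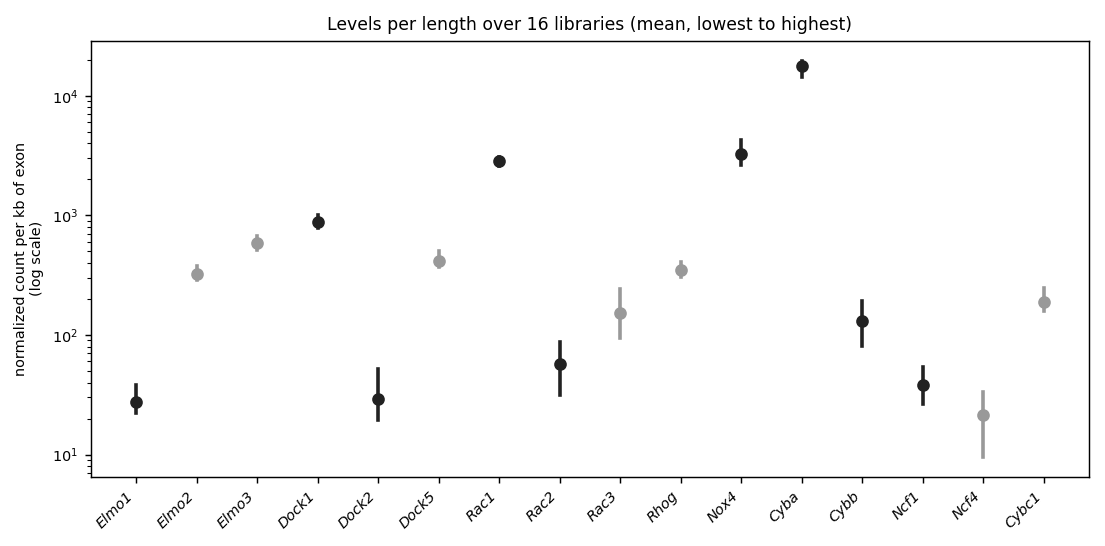
Normalized counts per kb of exon (log scale) for the 9 genes (black) and 7 relatives and other subunits (grey). Points are means over 16 libraries and lines run from the lowest to the highest library. Cyba, Nox4, Rac1 and Dock1 lie above 700, and the other 5 of the 9 genes below 200.

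To set widely expressed members beside those known from blood cells, 250 bases before the start of the canonical transcript are given for Dock1 and Dock2, the pair of exchange factors, and for Rac2 and Cybb, the 2 genes that were lower in diabetic kidneys below. They were read from GRCm39 on the strand of each gene, 5′ to 3′. Capitals mark exact matches to GAGGAA, searched on both strands. This is a form of the sites for PU.1, a transcription factor of myeloid and B cells. Other forms of such sites were not searched and are not marked.
Dock1, chr7:134272122-134272371, plus strand: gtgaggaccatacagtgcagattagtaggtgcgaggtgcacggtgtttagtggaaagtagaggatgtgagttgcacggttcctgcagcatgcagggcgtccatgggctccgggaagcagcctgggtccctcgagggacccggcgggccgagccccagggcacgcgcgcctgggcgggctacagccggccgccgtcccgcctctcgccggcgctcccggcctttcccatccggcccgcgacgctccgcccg
Dock2, chr11:34674799-34675048, minus strand: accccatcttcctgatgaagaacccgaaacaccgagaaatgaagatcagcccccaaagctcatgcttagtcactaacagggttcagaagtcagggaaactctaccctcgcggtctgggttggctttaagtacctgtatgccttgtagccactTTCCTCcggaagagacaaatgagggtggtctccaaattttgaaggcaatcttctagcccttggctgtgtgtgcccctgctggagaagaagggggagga
Rac2, chr15:78457430-78457679, minus strand: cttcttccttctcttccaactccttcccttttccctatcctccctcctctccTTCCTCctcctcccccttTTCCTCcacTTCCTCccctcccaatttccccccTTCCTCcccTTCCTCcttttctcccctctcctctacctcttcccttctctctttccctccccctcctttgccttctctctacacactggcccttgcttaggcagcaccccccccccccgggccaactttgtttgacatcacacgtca
Cybb, chrX:9335571-9335820, minus strand: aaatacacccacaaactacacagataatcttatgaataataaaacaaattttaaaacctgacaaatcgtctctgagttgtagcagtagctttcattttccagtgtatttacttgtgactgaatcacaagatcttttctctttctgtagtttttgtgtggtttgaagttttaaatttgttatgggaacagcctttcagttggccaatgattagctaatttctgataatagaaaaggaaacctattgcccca
The Rac2 window held 5 matches, all on the opposite strand and between 138 and 198 bases before the start, and the Dock2 window held 1 match, 98 bases before the start. The windows of the other 7 genes held no exact match. In windows of the same length, 22.9% of 21770 promoters held at least 1 match and 0.023% held 5 or more. The 5 matches of Rac2 lie in a stretch made up mostly of C and T, and how often other stretches of that kind hold matches was not counted. GC content was 71.6% for Rac1, 70.0% for Dock1, 67.2% for Nox4, 58.4% for Cyba, 57.2% for Rac2, 54.4% for Ncf1, 51.2% for Dock2, 46.4% for Elmo1 and 32.8% for Cybb, where the median of all promoters was 53.2% and the range from the 5th to the 95th percentile was 35.6% to 71.6%. A match of letters is a description and does not say that a factor binds there, and a window without an exact match can still hold another form of the site.

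Elmo1, the adaptor itself, lies on chromosome 13 of GRCm39 (ENSMUSG00000041112.18, 20274428 to 20792523, plus strand). In ND_C its normalized counts were 497.2, 346.9, 330.7 and 376.2, and in ND_B12 they were 357.0, 294.8, 325.8 and 346.2. In D_C they were 416.7, 336.4, 319.0 and 356.5, and in D_B12 373.2, 394.5, 286.0 and 315.8. The highest value, ND_C 1, belonged to a non-diabetic mouse, and all groups overlapped. Averaged over both treatments, diabetic kidneys differed from non-diabetic kidneys by a log2 fold change of -0.036 (SE 0.099, 95% interval -0.25 to 0.17, n = 8 against 8, adjusted p = 0.888 in edgeR's quasi-likelihood test). This interval holds for the fit without the date. With D_C against ND_C the log2 fold change was -0.12 (SE 0.14, adjusted p = 0.72), and with D_B12 against ND_B12 it was 0.047 (SE 0.14, adjusted p = 0.906). For B12 the log2 fold change was -0.22 (SE 0.14, adjusted p = 0.751) in non-diabetic and -0.059 (SE 0.14, adjusted p = 0.904) in diabetic kidneys, and the interaction was 0.16 (SE 0.20, adjusted p = 0.745). With the date as a covariate the averaged diabetes value of Elmo1 was 0.35 (adjusted p = 0.517), outside that interval and of the other sign, and over all alternatives its adjusted p ran from 0.517 to 1. The diabetes values and that of B12 in diabetic kidneys took both signs over the alternatives, whereas B12 in non-diabetic kidneys stayed between -0.29 and -0.090 and the interaction between 0.041 and 0.41.

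**Figure D2:**
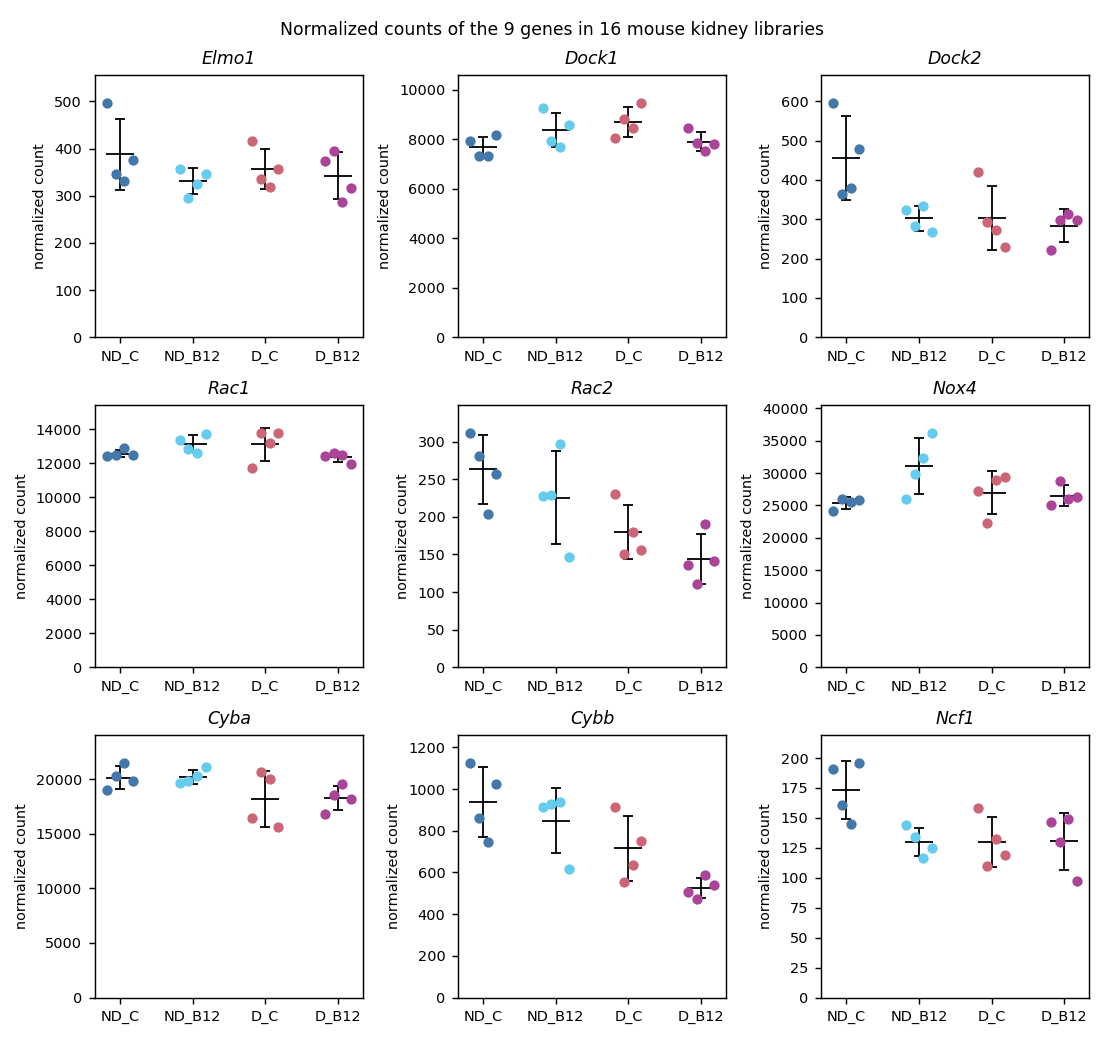
Normalized count of each of the 9 genes in each library (points), by group, with the group mean and SD (bars, n = 4). Cybb and Rac2 were lower in most diabetic libraries, whereas Elmo1 overlapped in each comparison of groups.

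Most Elmo1 counts came from 1 transcript. Elmo1-201 (ENSMUST00000072519.7), the full-length protein-coding transcript of 5825 bases, held 83.7% ± 4.56 of the Elmo1 counts (SD, n = 16). Elmo1-204 and Elmo1-203, both annotated as retained introns, held 6.58% ± 3.19 and 6.27% ± 2.04. The shorter coding transcript Elmo1-202 held 1.77%, and Elmo1-206, Elmo1-205 and Elmo1-207 held 0.939%, 0.521% and 0.243%. With 50-base paired reads a share is an estimate that depends on how reads common to several transcripts were divided.
The share of Elmo1-204 in D_B12 was 8.065%, 6.897%, 10.93% and 12.69%, and in ND_B12 it was 1.835%, 3.704%, 3.817% and 5.307%, without overlap. The difference between the means was 5.98 percentage points (two-sided exact permutation p = 0.0286, the smallest that 4 against 4 can give, adjusted p = 0.286 over 20 tests), so it did not pass the correction. These shares rest on 6 to 34 counts per library. Shares of transcripts add up to the whole, so a higher share of Elmo1-204 leaves less for Elmo1-201. The share of Elmo1-201 did not overlap either, at 79.5% ± 3.65 in D_B12 against 87.4% ± 2.41 in ND_B12 (the same exact p and adjusted p). Under the closest sets described above both shares would overlap. D_C 1, with 7.724% of Elmo1-204 and 81.1% of Elmo1-201, would be in ND_B12. D_C 3, with 4.735% and 89.42%, would be in D_B12. In the fit over all 66503 transcripts tested, edgeR called none of the 4 Elmo1 transcripts with enough counts (Elmo1-201 to Elmo1-204) in any of the 6 comparisons, nor any other transcript. Unadjusted p was below 0.05 for Elmo1-204 in D_B12 against ND_B12 (log2 fold change 1.34, SE 0.51, adjusted p = 0.323), in ND_B12 against ND_C (-1.12, SE 0.51, adjusted p = 0.717) and in the interaction (1.53, SE 0.71, adjusted p = 0.414), as for 8057, 4611 and 8017 transcripts in all.

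**Figure D3:**
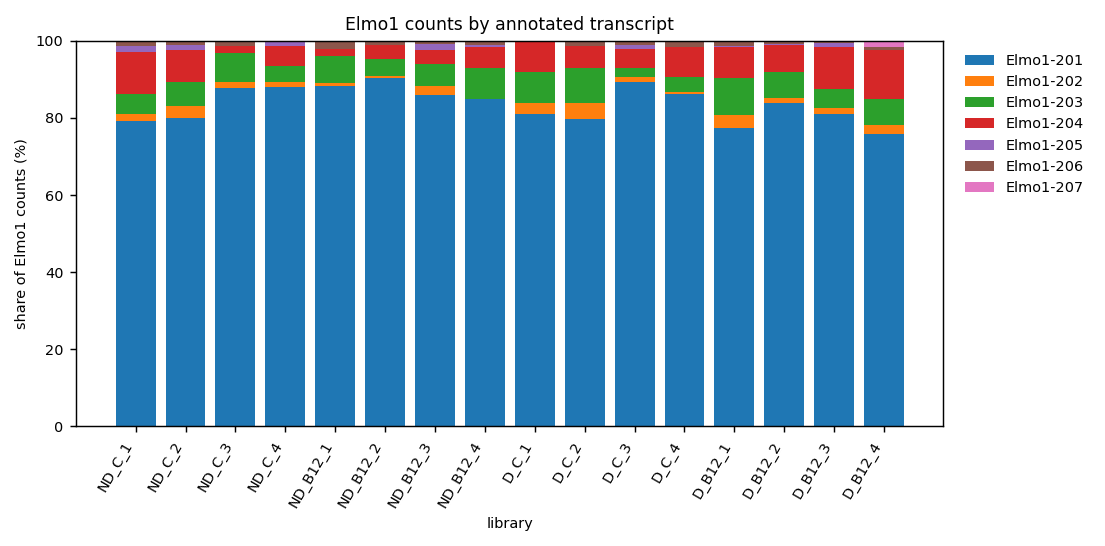
Share of Elmo1 counts (%) assigned to each of its 7 transcripts in each of 16 libraries. Elmo1-201 makes up 75.8% to 90.2% of every library, and Elmo1-204 between 1.71% and 12.7%.

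Dock1 and Dock2, the exchange factors that Elmo1 partners, followed separate patterns. Dock1 (chromosome 7, 134272372 to 134775375) ran from 7302 to 9476 normalized counts. Its groups overlapped, with means (± SD, n = 4) of 7670 ± 428 and 8365 ± 698 in the untreated and treated non-diabetic kidneys and of 8691 ± 611 and 7904 ± 382 in the untreated and treated diabetic kidneys. The averaged diabetes effect was 0.048 on the log2 scale (SE 0.048, adjusted p = 0.639). Dock1 had the lowest adjusted p of the 9 genes in the interaction of diabetes and B12, with a log2 value of -0.26 (SE 0.096, adjusted p = 0.189), which did not pass.
Dock2 (chromosome 11, 34176815 to 34674798, minus strand) had 596.4, 364.8, 379.4 and 478.9 normalized counts in ND_C and 324.3, 281.9, 334.5 and 267.9 in ND_B12. In D_C it had 419.3, 292.2, 273.7 and 229.4, and in D_B12 222.7, 299.3, 314.5 and 298.8. ND_C was the high group, and the other 3 groups shared 1 range apart from D_C 1. In D_C against ND_C the log2 fold change was -0.58 (SE 0.19, adjusted p = 0.109), and averaged over treatments it was -0.34 (SE 0.13, adjusted p = 0.173). Without ND_B12 4 and D_C 1 these became -0.78 (adjusted p = 0.017) and -0.46 (adjusted p = 0.0294), and without D_C 1 alone the first was -0.79 (adjusted p = 0.0215). With all 16 libraries DESeq2 called Dock2 in D_C against ND_C and edgeR did not, so the call depends on the tool and on the libraries. Over all alternatives the adjusted p of the averaged value ran from 0.0294 to 0.903.

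Rac1 and Rac2, the GTPases that Elmo and Dock switch on, also differed. Rac1 (chromosome 5, 143489389 to 143514493, minus strand) ran only from 11737 to 13800 normalized counts, and the averaged diabetes effect was -0.015 on the log2 scale (SE 0.038, 95% interval -0.097 to 0.067, adjusted p = 0.878).
Rac2 (chromosome 15, 78443367 to 78457429, minus strand) fell in diabetic kidneys. Its normalized counts were 311.5, 281.3, 203.9 and 256.2 in ND_C and 228.2, 229.3, 297.2 and 147.0 in ND_B12. They were 230.4, 151.3, 180.4 and 156.4 in D_C and 135.4, 110.6, 190.3 and 140.9 in D_B12. ND_B12 4 lay among the diabetic libraries and D_C 1 among the non-diabetic ones, and without those 2 the ranges, 203.9 to 311.5 and 110.6 to 190.3, did not overlap. Of all genes tested, 1.53% were lower without overlap in the same 14 libraries. Over all 16 libraries the averaged log2 fold change was -0.60 (SE 0.15, 95% interval -0.92 to -0.27, adjusted p = 0.0452), from a mean of 244 ± 54.0 to 162 ± 37.3 (SD, n = 8). The call was close to the threshold. Of 16 fits that each left out 1 library it held in 3 (without ND_B12 4, D_C 1 or D_B12 3), and the adjusted p over those 16 fits ran from 0.0134 to 0.0966, with the log2 fold change between -0.68 and -0.52. Without ND_B12 4 and D_C 1 together it was -0.75 (adjusted p = 0.00346).

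The NADPH oxidase members differed among themselves. Nox4 (chromosome 7, 86895304 to 87047918), the tubular catalytic chain, ran from 22256 to 36202 normalized counts, and its averaged diabetes effect was -0.074 on the log2 scale (SE 0.069, adjusted p = 0.607). Cyba (chromosome 8, 123150422 to 123159706, minus strand), the membrane partner of both catalytic chains, had 16414, 20643, 20020 and 15572 normalized counts in D_C and 18958 to 21458 in ND_C. Its averaged value was -0.15 (SE 0.059, adjusted p = 0.179).
Cybb (chromosome X, 9301491 to 9354010, minus strand), the catalytic chain of the phagocyte oxidase, fell in diabetic kidneys. Its normalized counts were 1125, 859.8, 747.6 and 1023 in ND_C and 916.0, 927.1, 936.4 and 615.0 in ND_B12. They were 914.8, 556.3, 636.3 and 752.5 in D_C and 507.6, 472.5, 588.5 and 538.1 in D_B12. The libraries labelled D_B12 had the lowest mean and each lay below every non-diabetic library, but D_C 2 lay within their range. Under the closest sets described above the libraries labelled D_B12 would be the untreated diabetic group. D_C 1 stood above the other 7 diabetic libraries. The averaged log2 fold change was -0.54 (SE 0.12, 95% interval -0.79 to -0.29, adjusted p = 0.0263), from a mean of 894 ± 157 to 621 ± 147 (SD, n = 8). It was -0.39 (SE 0.16, adjusted p = 0.212) in D_C against ND_C and -0.69 (SE 0.17, adjusted p = 0.0602) in D_B12 against ND_B12, and neither passed. The averaged call held in 9 of 16 fits that left out 1 library and was lost without ND_C 1, ND_B12 1, ND_B12 2, ND_B12 3, D_C 2, D_C 3 or D_B12 1, with adjusted p from 0.00675 to 0.0608 over the 16. Without ND_B12 4 and D_C 1 it was -0.67 (adjusted p = 0.000805), and the ranges, 747.6 to 1125 and 472.5 to 752.5, then met only at their ends.
On the 1 date with both kinds of mice, D_C 1 had 914.8 normalized counts of Cybb, within the range of ND_B12 2, 3 and 4 (615.0 to 936.4), and 230.4 of Rac2, also within their range (147.0 to 297.2). Both libraries in doubt, ND_B12 4 and D_C 1, carry that date. With the date as a covariate the averaged log2 fold change of Cybb was -0.53 (adjusted p = 0.473) and that of Rac2 -0.61 (adjusted p = 0.541), so neither was called. Since date and group can hardly be told apart, the values from this fit cannot separate them. Over all alternatives the adjusted p of the averaged value ran from 0.000633 to 0.473 for Cybb and from 0.00346 to 0.541 for Rac2.
Ncf1 (chromosome 5, 134248907 to 134258479, minus strand), the organizer of the phagocyte oxidase, had 144.98 to 195.8 normalized counts in ND_C and between 97.2 and 158.4 in the other 12 libraries. Its averaged value was -0.20 (SE 0.11, adjusted p = 0.355). Of the other subunits of the same enzyme, log2 values were -0.29 (SE 0.24, adjusted p = 0.532) for Ncf4 and -0.091 (SE 0.064, adjusted p = 0.47) for Cybc1. Neither passed.

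In all, 2 of the 9 genes, Cybb and Rac2, were called lower in the averaged comparison of diabetic with non-diabetic kidneys, where edgeR called 3.02% of 25408 genes tested, 2.16% lower and 0.862% higher. An unadjusted p below 0.05 was found for 4 of the 9 and 19.4% of all genes, and DESeq2 called 2 of the 9, again Cybb and Rac2, and 8.54% of the genes to which it gave an adjusted p. Of the 9, 8 had a log2 fold change below 0, as had 12279 of the 25408 genes tested. The median of the 9 was -0.15 beside 0.0072 over all genes tested. Without ND_B12 4 and D_C 1 edgeR called 3 of the 9 (Cybb, Rac2 and Dock2) and 10.2% of all genes. The other 6 were not called there, with averaged values of -0.064 for Elmo1, 0.074 for Dock1, 0.023 for Rac1, -0.033 for Nox4, -0.11 for Cyba and -0.27 for Ncf1. In D_C against ND_C edgeR called 0 of the 9 (1.66% of all genes), 5 had an unadjusted p below 0.05 (18.6% of all genes), and DESeq2 called 1, Dock2 (7.83%). In D_B12 against ND_B12 it called 0 of the 9 (0.823% of all genes), 3 had an unadjusted p below 0.05 (17% of all genes), and DESeq2 called 1, Cybb (5.22%). By the labels each D_B12 library lay below each ND_B12 library for 3 of the 9, Cybb, Cyba and Rac1, as for 6.57% of all genes. Under the closest sets described above Cybb and Cyba would overlap between these groups, and the direction of Rac1 would turn. Whether the diabetes effect differed between treated and untreated mice was tested by the interaction, which called 0 of the 9. The comparisons share libraries and are not independent of each other.

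**Figure D4:**
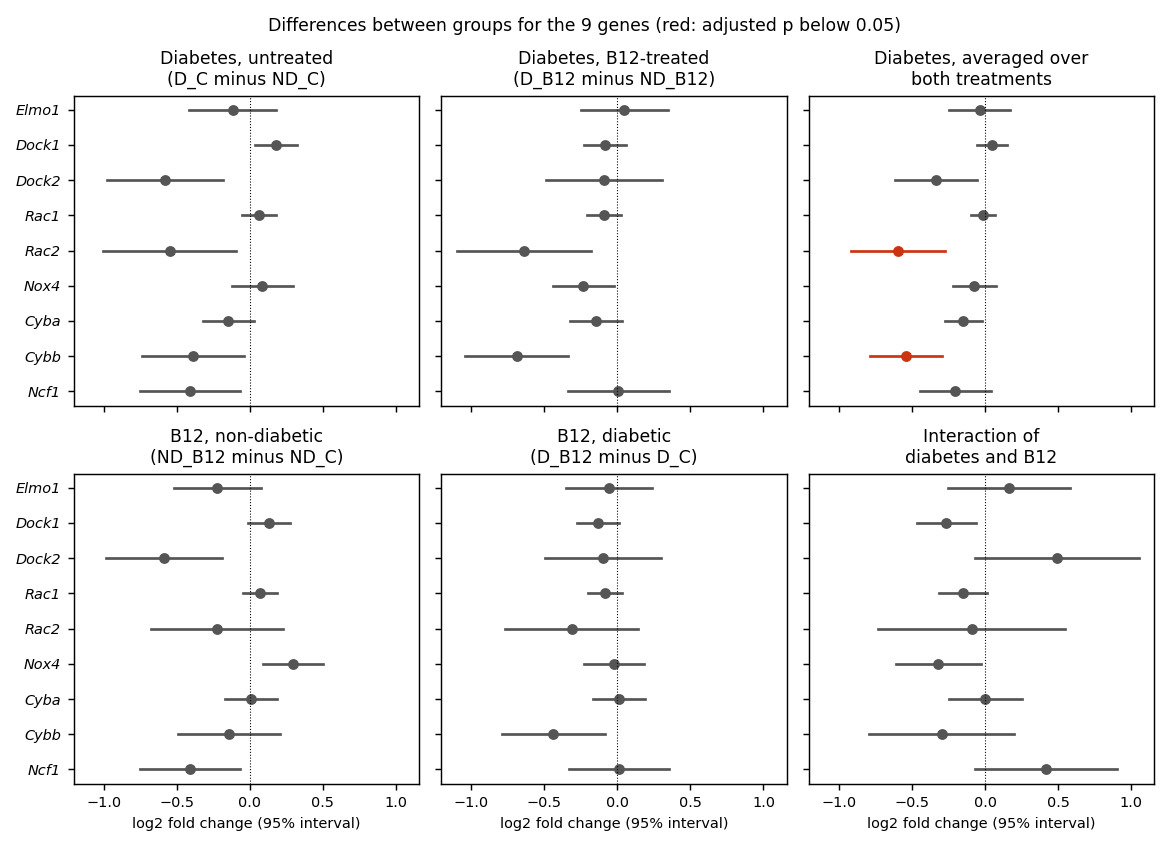
Log2 fold change with its 95% interval for the 9 genes in 6 comparisons, red where the adjusted p was below 0.05. Rac2 (-0.60) and Cybb (-0.54) are the only red points, both in the averaged diabetes comparison.

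Markers of leukocytes and macrophages moved with Cybb and Rac2. All 16 markers on that list had a log2 fold change below 0 in the averaged diabetes comparison (median -0.32), and 6 were called lower. Over all 25408 genes tested, 12279 were below 0 and 2.16% were called lower. The markers called were the following. They were Laptm5, a lysosomal protein of blood cells (-0.52, adjusted p = 0.0202), the signalling adaptor Tyrobp (-0.53, adjusted p = 0.0174), the complement chains C1qa (-0.47, adjusted p = 0.0382) and C1qc (-0.41, adjusted p = 0.0337), the surface peptide Cd52 (-0.70, adjusted p = 0.0422) and the actin regulator Coro1a (-0.50, adjusted p = 0.0253). Of 16 fits that each left out 1 library, the call was lost in 14 for Cd52, 13 for C1qa, 10 for C1qc, 5 for Coro1a, 1 for Laptm5 and 0 for Tyrobp. With the date as a covariate none of the 6 was called, and Laptm5 was at -0.21 and Cd52 at -0.20. All 6 calls held without ND_B12 4 and D_C 1. The summed level of the list was 102.7 to 178.5 CPM in the non-diabetic and 96.67 to 144.6 CPM in the diabetic libraries, and 0 of its 16 genes were at 0 in every library. ND_B12 4, at 102.7 CPM, was the lowest non-diabetic library and D_C 1, at 144.6 CPM, the highest diabetic one, as for Cybb. The part of these markers in the lower Cybb and Rac2 was not tested, and in whole-kidney RNA fewer cells of a type and less RNA per cell cannot be told apart.
Neutrophils also use this oxidase. All 10 neutrophil markers averaged under 1 CPM, only 4 had enough counts to test, and none was called. Of 10 B cell and plasma cell markers, Jchain, which joins IgA and IgM chains, was called lower (-2.09, adjusted p = 0.0116) in the averaged comparison, and it was also called in D_C against ND_C (-1.96, adjusted p = 0.0468) and in D_B12 against ND_B12 (-2.23, adjusted p = 0.0423). Of 10 T cell markers, Cd3g, a chain of the T cell receptor complex, was called lower (-1.18, adjusted p = 0.0475). The medians of these 2 lists were -0.57 and -0.56. In each of the 2 lists 9 of 10 markers also averaged under 1 CPM, among them Cd3g at 0.42 CPM. Endothelial markers had values above 0 for 8 of 8 genes in the averaged comparison (median 0.11) and in D_C against ND_C (median 0.31), but for only 2 of 8 in D_B12 against ND_B12 (median -0.057). Of all 25408 genes tested, 13129, 12530 and 12825 were above 0 in these 3 comparisons. The interaction values of the 8 markers were all below 0 (median -0.40), as for 12789 of all genes, and none was called. Egfl7, a protein secreted by endothelium, was called higher in the averaged comparison (0.25, adjusted p = 0.0307), with 0.098 in D_B12 against ND_B12. Of 8 proximal tubule markers 3 were called lower, beside 2.16% of all genes. They were the phosphate transporter Slc34a1 (-0.25, adjusted p = 0.0178), Kap (-0.49, adjusted p = 0.048) and the inositol oxygenase Miox (-0.52, adjusted p = 0.0121). The call on Kap was lost in 14 of 16 fits that left out 1 library, those on Miox and Slc34a1 in 0. With the date as a covariate Miox was at -0.17 and none of the 3 was called. Of 8 other nephron markers the water channel Aqp2 of the collecting duct was called higher (1.14, adjusted p = 0.0348). Leaving out 1 library lost the call on Cd3g in 12 of 16 fits, on Aqp2 in 12, on Egfl7 in 7 and on the averaged Jchain value in 0, and with the date as a covariate Cd3g was at -0.36, Egfl7 at 0.084 and Aqp2 at 1.74. Of 7 tested adipocyte and adrenal markers none was called. Their summed level ran from 4.694 to 90.94 CPM and was high in single libraries of each group.

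**Figure D5:**
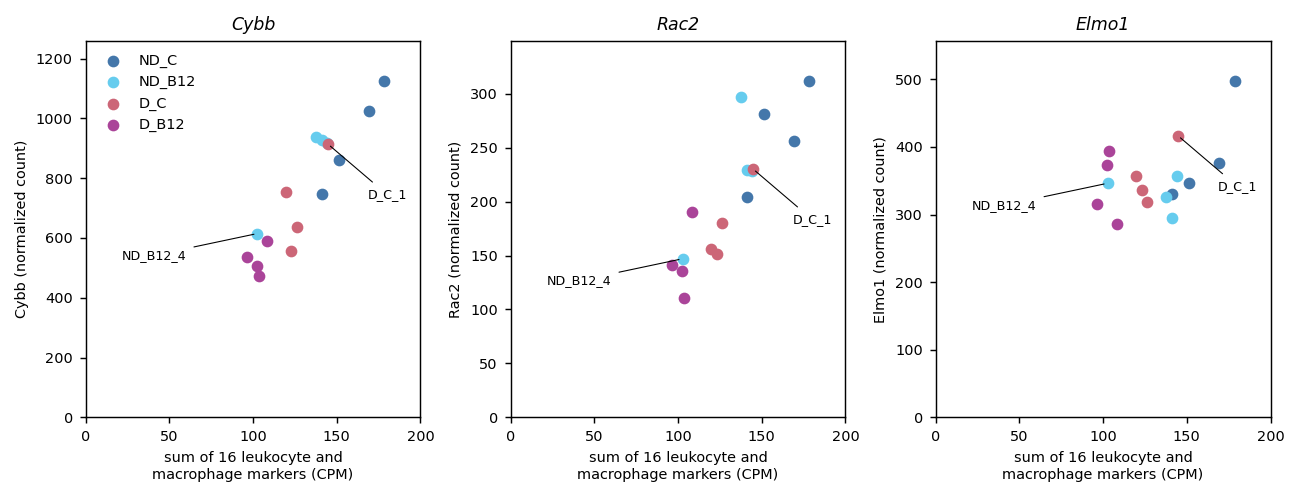
Normalized counts of Cybb, Rac2 and Elmo1 (vertical axes) against the summed level of 16 leukocyte and macrophage markers in CPM (horizontal axes), 1 point per library, coloured by group. ND_B12 4 and the D_B12 libraries have the lowest marker sums (96.67 to 108.3 CPM), with Cybb of at most 615.0 and Rac2 of at most 190.3, while their Elmo1 spreads from 286.0 to 394.5.

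The effect of B12 was read within each state. In ND_B12 against ND_C edgeR called 0 of the 9 genes and 0 of all 25408 genes (0%), against 1937 genes (7.62%), 3 of the 9 among them, at an unadjusted p below 0.05 and 6 genes (0.0236%), none of the 9, with DESeq2. The 3 were Dock2 (log2 fold change -0.59, SE 0.19, adjusted p = 0.57), Nox4 (0.30, SE 0.097, adjusted p = 0.585) and Ncf1 (-0.41, SE 0.16, adjusted p = 0.61). Nox4 was at 24101, 26043, 25550 and 25892 normalized counts in ND_C and at 26018, 29803, 32395 and 36202 in ND_B12, so that the groups touched in 1 library. By the labels each ND_B12 library lay below each ND_C library for Dock2 and Ncf1, as for 2.16% of all genes tested. Under the closest sets described above ND_B12 1 would join ND_C, while ND_C 3 and D_C 1 would join ND_B12. Both genes would then overlap. Dock2 had 324.3 normalized counts in ND_B12 1, against 379.4 in ND_C 3 and 419.3 in D_C 1. Ncf1 had 144.1 in ND_B12 1, against 145.0 in ND_C 3 and 158.4 in D_C 1. Cybb differed by -0.14 (SE 0.16, adjusted p = 0.889).
In D_B12 against D_C edgeR again called 0 of the 9 and 0 of all genes (0%), against 3468 genes (13.6%) at an unadjusted p below 0.05. DESeq2 called 681 genes (3.78%), none of them among the 9. Cybb was the 1 member with an unadjusted p below 0.05, with a log2 fold change of -0.44 (SE 0.17, adjusted p = 0.254) by the labels. All 16 leukocyte and macrophage markers had values below 0 in this comparison too (median -0.25), as had 12724 of all 25408 genes, and none was called. Under the closest sets described above the treated and untreated diabetic groups change places almost entirely. This would turn the direction of the difference in Cybb and in the summed level of these markers. Rac2 differed by -0.31 (SE 0.22, adjusted p = 0.567), Dock1 by -0.14 (SE 0.068, adjusted p = 0.399) and Rac1 by -0.084 (SE 0.054, adjusted p = 0.538). In the interaction edgeR called 0 of the 9 and 0 of all genes (0%), against 4093 genes (16.1%) at an unadjusted p below 0.05 and 923 (4.62%) with DESeq2. Dock1 (above) and Nox4 (-0.32, SE 0.14, adjusted p = 0.265) had an unadjusted p below 0.05, and DESeq2 called none of the 9. For Cybb the interaction was -0.30 (SE 0.23, 95% interval -0.79 to 0.20, adjusted p = 0.578), an interval wide enough to hold a change as large as the diabetes effect itself.

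Other genes of the pathway were read from lists. Over all genes tested, the averaged diabetes comparison called 2.16% lower and 0.862% higher, and D_C against ND_C called 1.66%. Of 14 Elmo and Dock genes, 1 was called in the averaged diabetes comparison. Dock6, an exchange factor for Rac and Cdc42, was higher (0.21, SE 0.050, adjusted p = 0.0363), and it was also called in D_C against ND_C (0.34, adjusted p = 0.0367), with 0.084 in D_B12 against ND_B12. The family median was -0.11. Elmo2 (0.12, adjusted p = 0.205), Elmo3 (-0.11, adjusted p = 0.181) and Dock5 (-0.11, adjusted p = 0.296) did not pass.
Of 17 Rac family genes, exchange factors and inhibitors, Rac2 was called lower and Arhgdig, one of the inhibitors, higher (1.00, SE 0.24, adjusted p = 0.0359), from 56.7 ± 25.0 to 114 ± 28.7 normalized counts (SD, n = 8). Rac3 (0.24, adjusted p = 0.271) and Rhog (-0.030, adjusted p = 0.857) did not pass. Of 9 tested signals upstream of Elmo and Dock, Stab1, a scavenger receptor of macrophages and endothelium, was called higher (0.42, SE 0.10, adjusted p = 0.0364), and in D_C against ND_C by 0.62 (adjusted p = 0.0443), with 0.23 (adjusted p = 0.446) in D_B12 against ND_B12. Of 15 Rac effectors, Nckap1l, the subunit of the actin-nucleating WAVE complex found in blood cells, was called lower (-0.36, SE 0.094, adjusted p = 0.0477). The scaffold Iqgap1 was called higher in D_C against ND_C (0.37, SE 0.079, adjusted p = 0.0377) and had 0.042 in D_B12 against ND_B12 and 0.21 (adjusted p = 0.0569) in the averaged comparison. Leaving out 1 library lost the averaged call in 9 of 16 fits for Arhgdig, 10 for Dock6, 12 for Stab1 and 13 for Nckap1l. The medians of these lists were 0.020, -0.015 and 0.0015. Of 10 tested NADPH oxidase subunits 1, Cybb, was called, and the median was -0.15. In D_C against ND_C the endothelial genes Flt1 (0.32, adjusted p = 0.0408) and Egfl7 (0.39, adjusted p = 0.034) were called higher, Aqp2 higher (1.69, adjusted p = 0.0436) and Miox lower (-0.56, adjusted p = 0.0443). None of these 4 was called in D_B12 against ND_B12, where the values were -0.13 for Flt1, 0.098 for Egfl7, 0.59 for Aqp2 and -0.48 for Miox. The interaction called 0 of all genes, so no difference between the 2 comparisons was called for these 4 or for Dock6, Stab1 and Iqgap1. Under the closest sets described above the libraries labelled D_B12 would be the untreated diabetic group, so the group with the larger change is in doubt.

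Across the 16 libraries Cybb and Rac2 varied together (Pearson r = 0.92 of log2 CPM), more than any other pair of the 9. Dock2 had r = 0.71 with Rac2, 0.68 with Cybb and 0.70 with Ncf1, against 0.56 with Elmo1. Elmo1 had r = 0.11 with Dock1 and -0.25 with Rac1. These values describe libraries that share groups and dates, and carry no test. Of 16071 genes with a mean of at least 1 CPM, those most like Cybb were H2-Aa (r = 0.959), H2-Eb1 (0.953), Ctss (0.943), Ly86 (0.94) and Akr1c19 (0.922). H2-Aa and H2-Eb1 are chains of the class II molecules that present antigen, and Ctss is a lysosomal protease of antigen-presenting cells. The genes most like Elmo1 were Ifi203 (r = 0.801), Parp14 (0.783), Runx1 (0.78), Basp1 (0.774) and Kctd1 (0.769), and those least like it Pusl1 (-0.832), Sugp1 (-0.779), Shpk (-0.779), Cps1 (-0.773) and Lias (-0.76).

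Several of the 9 genes share their span with other annotated genes. Elmo1 overlaps 9 genes (3 on its own strand), Dock1 7, Dock2 5 and Nox4 0. Rac1 overlaps Daglb, Cyba overlaps Il17c, Cybb overlaps Xk and Ncf1 overlaps Gtf2ird2, each on the opposite strand. By the study's methods strand was taken from intron motifs during alignment, which unspliced reads do not carry, and a strand setting for the deposited counts is not stated, so reads from such overlaps cannot be assigned with certainty.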

How the data were processed

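Kidney RNA from 16 mice in 4 labelled groups of 4 was sequenced as paired 50-base reads. STAR alignment to GRCm39 and StringTie quantification against GENCODE vM35 were done by the authors, who deposited estimated counts (expected counts) per gene and transcript, exported by prepDE as whole numbers. The submitters' processing notes name bcl2fastq 2.20.0. Each library came from a separate mouse. Genes with at least 100 counts in all (25408 of 57186) were tested with edgeR 4.0.16 in R 4.3.3 (TMM, glmQLFit, glmQLFTest, 1 mean per group, all 16 libraries, 12 residual degrees of freedom, Benjamini-Hochberg, two-sided, threshold 0.05). Normalized counts are counts over median-of-ratios size factors, and exon lengths merge the annotated exons of the transcripts counted. Correlations use log2 CPM with a prior count of 2. Shares of Elmo1 counts were compared by exact permutation. Positions and sequences come from GRCm39 with GENCODE vM39. The 9 genes and the lists were chosen with earlier results of these data known, so a list's counts are no independent support. Genes named are the 9, the listed genes called in a comparison, 7 relatives and other subunits for their levels, and the genes most and least like Elmo1 and most like Cybb. Samples that share a number share nothing else by the labels, and their deviations from group means correlated by -0.183 to 0.168. The alternatives were DESeq2 1.42.0, upper-quartile normalization, other filters, the date as a covariate, the number as a block, the compared groups alone, and libraries left out. The edgeR test was tested on simulated data for D_C against ND_C, with 200 of 25408 genes changed, all drawn from well-counted genes. It recovered 80 of 100 genes changed by a log2 of 1 and 98 of 100 changed by 2. There were 14 false calls among 192, a share of 7.29% that lies above the threshold of 0.05. Changes as small as those of the 9 genes, date effects and mislabelled libraries were not simulated. Other software was matplotlib 3.10.9 for plots, and numpy 2.4.6 with pandas 2.3.3 under Python 3.11.15.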

Additional observations from a re-analysis of the deposited data

Results flagged for a closer look

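Over the 9 genes and 4 groups, 36 sets of 4 libraries were screened for a library far from the others, and chance alone marks about 1 in 20 such sets. Cybb in ND_B12 4 was 615.0 normalized counts, against 916.0 to 936.4 in the other 3 libraries of its group. Dock2 in D_B12 1 was 222.7 normalized counts, against 298.8 to 314.5 in the rest of D_B12. Rac1 in ND_C 3 was 12923 normalized counts, against 12453 to 12481 in the rest of ND_C. Cybb in ND_B12 4 is the 1 of the 3 that bears on a call, since without that library the averaged diabetes effect on Cybb had a larger size.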

How the results depend on the processing

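The averaged diabetes comparison called 2 of the 9 genes. It called 1 (Cybb) with upper-quartile normalization (2.72% of all genes), 1 (Cybb) with no filter beyond 1 count (1.05%), 0 with the date as a covariate (0%), and 0 to 3 when 1 library was left out. In D_C against ND_C, where the count was 0, DESeq2 called 1 (Dock2, 7.83% of all genes), the fit without both ND_B12 4 and D_C 1 called 3 (Dock2, Rac2, Cybb, 8.57%), and leaving out 1 library gave 0 to 1. In D_B12 against ND_B12, also 0, DESeq2 called 1 (Cybb, 5.22%), the fit without both called 2 (Rac2, Cybb, 2.8%), and leaving out 1 library gave 0 to 1. The cause of these shifts was not tested. With the replicate number as a block the averaged comparison called 1 gene of the 9, Cybb, and 478 of all genes (1.88%) in place of 767. No pairing of animals is stated, 5 of 16 libraries correlated best with their own number, and the block changed no other count of the 9 or of Elmo1 transcripts.

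Signs of small differences turned. With the date as a covariate Elmo1 was at 0.15 for D_C against ND_C, 0.29 for B12 in diabetic kidneys and 0.35 averaged, Nox4 at -0.043 for D_C against ND_C, Dock2 at 0.18 for D_B12 against ND_B12, and Ncf1 at 0.075 averaged. Without both ND_B12 4 and D_C 1, Elmo1 was at 0.027 for B12 in diabetic kidneys, Rac1 at 0.023 averaged and Ncf1 at -0.0069 for D_B12 against ND_B12. Leaving out 1 library moved Elmo1 between -0.21 and 0.018 (D_C against ND_C), -0.029 and 0.12 (D_B12 against ND_B12), -0.13 and 0.040 (B12 in diabetic kidneys) and -0.077 and 0.038 (averaged), Dock2 between -0.15 and 0.022 and Ncf1 between -0.064 and 0.12 (D_B12 against ND_B12), and Rac1 between -0.025 and 0.011 (averaged).

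For the other listed genes named, 26 calls gave 324 values that kept and 283 that lost the call under these alternatives, and 0 that turned. All 26 held without both ND_B12 4 and D_C 1.

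Counts over all genes moved more. The averaged comparison called 767 genes, 28.6% of them higher, and 1832 (38.6% higher) with DESeq2, 427 with no filter, 0 with the date, 2531 (47.6% higher) without both libraries, and 235 to 1700 with 1 left out. D_C against ND_C called 423, against 1603 with DESeq2, 63 with no filter, 2 with the date, 269 with the block, 242 for these groups alone and 2127 without both. D_B12 against ND_B12 called 209 (31.6% higher), against 1146 with DESeq2, 18 (44.4% higher) with upper-quartile normalization, 35 with no filter, 29 with the date, 25 with the block and 695 without both. B12 in diabetic kidneys called 0, against 681 with DESeq2, 204 with the date, 1 for these groups alone and 216 without both, and the interaction 0, against 923, 753 with the date, 147 with the block and 87 without both. Per library, Elmo1 had 260 to 492 counts and Rac2 116 to 292.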
